A study of Homo sapiens and Mus musculus with 13 samples.

Results

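The genes described here lie close to Trim11, the ubiquitin E3 ligase gene that was deleted in 1 copy in a mouse model of breast cancer. They are 10 genes of chromosome 11 (2610507I01Rik, Gm10435, Zfp692, Zfp672, Sh3bp5l, Gm12250, Gm12251, Cnot8, Gemin5 and Larp1), each within 1 Mb of the gene body of Trim11, out of 109 genes of the deposited table in that window and 55228 gene symbols in all. They were chosen with their values in the tumors known, so the comparison between the genotypes is given for them as a description, with no test. Expression was measured by RNA-Seq as FPKM, a number of fragments scaled by exon length and by library size. All 10 genes had a mean of at least 0.5 FPKM over the 6 tumors, the minimum for the fit over all genes. Of the 109 genes of the window 56 reached it, and of all symbols 17328. 2610507I01Rik and Gm10435 reached it only through the Trim11+/- tumors, with means of 0.474 and 0.0454 FPKM in Trim11+/+ tumors. Their place among the genes tested thus rests on the group where they were high.

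The tumors were mammary tumors of female mice of 3 months that carried MMTV-PyVT, a transgene in which the mouse mammary tumor virus promoter drives a viral oncogene in mammary epithelium. 3 tumors were Trim11+/+ and 3 were Trim11+/-, with exons 2 to 6 of Trim11 deleted in the whole animal by CRISPR/Cas9. The deletion was made in C57BL/6N mice, and the labels describe tumors of both genotypes as from hybrids of Trim11+/- C57BL/6N with FVB/N-Tg (MMTV-PyVT) mice. The methods give the transgenic strain as FVB/N-Tg (MMTV-PyVT) 634Mul/J, while the number in the labels runs from 634 to 639 over the 6 tumors, 1 number per tumor. The methods name 3 or more generations of backcrossing before that cross. A deleted chromosome therefore carries its C57BL/6N neighborhood with it wherever no crossover has intervened, and for genes next to Trim11 the loss of 1 Trim11 copy and the strain of the linked alleles cannot be told apart in these tumors. The second set of samples was 7 libraries of MDA-MB-231, a human triple-negative breast cancer cell line, with 1 Control line (a guide RNA against GFP), 2 TRIM11-KD lines, 2 KDM5C-KD lines and 2 double knockdown (DKD) lines, all made with CRISPR/Cas9. The paper designed 2 guide RNAs per gene, so lines of 1 kind numbered 1 and 2 may differ by guide. The lines were pooled here by the gene targeted and used for the human counterparts of the genes.

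Genes next to a targeted locus are of 3 kinds here. 6 code for proteins: Zfp692 and Zfp672 for zinc finger proteins, Sh3bp5l for a relative of the Rab11 activator Sh3bp5, Cnot8 for a catalytic subunit of the CCR4-NOT complex that shortens poly(A) tails, Gemin5 for the subunit of the SMN complex that recognizes small nuclear RNAs, and Larp1 for an RNA-binding protein that holds mRNAs of the translation machinery. The other 4 are annotated as noncoding: 2610507I01Rik as a processed transcript, Gm10435 as an antisense transcript, and Gm12250 and Gm12251 as processed pseudogenes. A processed pseudogene is a copy of an mRNA that was reverse transcribed into the genome, and reads of such a copy can be shared with its parent gene. An antisense transcript runs across another gene on the other strand, and the library kit was non-directional, so reads do not tell which of the strands they came from.

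The sequences of 3 of the genes annotated as noncoding show what a read can and cannot resolve. They were taken from the transcripts of GENCODE vM21 on mm10. 2610507I01Rik lies at chr11:59199836-59202385 on the minus strand, 208.4 kb past the end of Trim11, with 1360 bases in 2 exons of 893 and 467 bases. No other transcript of the annotation matched it with BLAST at an E-value of 1e-10. Its first 100 bases (chr11:59202286-59202385) are shown because they begin 100 bp from the gene body of Mrpl55, which is read in the opposite direction. Near its 3′ end, a unit of 28 bases occurs 6 times between bases 1027 and 1290 of the transcript, and that stretch (chr11:59199891-59200184) is shown with the unit in capitals.
2610507I01Rik, 5′ end: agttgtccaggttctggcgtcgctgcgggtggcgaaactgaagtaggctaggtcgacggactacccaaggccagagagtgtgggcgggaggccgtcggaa
2610507I01Rik, repeat: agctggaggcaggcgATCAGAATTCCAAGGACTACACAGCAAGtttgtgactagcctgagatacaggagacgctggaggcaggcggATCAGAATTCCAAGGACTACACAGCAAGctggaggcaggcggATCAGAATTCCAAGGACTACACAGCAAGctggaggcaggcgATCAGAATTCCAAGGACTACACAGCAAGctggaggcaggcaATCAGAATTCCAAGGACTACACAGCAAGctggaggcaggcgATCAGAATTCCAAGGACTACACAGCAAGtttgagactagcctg

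Gm12251 lies at chr11:58392769-58393560 on the minus strand, 584.5 kb before the start of Trim11. Its 792 bases align without a gap to the mRNA of Ndufs3 on chromosome 2, a subunit of complex I of the respiratory chain, with 98.6% identity and 11 differing bases. The 100 bases that hold the most differences, 4 (bases 13 to 112 of the transcript, chr11:58393449-58393548), are shown beside Ndufs3 with the differing bases in capitals. The longest stretch with no difference is 182 bases, and of the 643 positions where a read of 150 bases could start, 43 (6.69%) hold no difference from Ndufs3.
Gm12251: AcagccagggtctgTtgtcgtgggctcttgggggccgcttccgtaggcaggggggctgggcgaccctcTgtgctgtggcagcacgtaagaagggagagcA
Ndufs3: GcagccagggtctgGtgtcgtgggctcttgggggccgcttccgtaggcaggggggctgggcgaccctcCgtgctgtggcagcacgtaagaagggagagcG

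Gm12250 lies at chr11:58187739-58189012 on the plus strand, 789.1 kb before the start of Trim11. The annotation calls it a processed pseudogene, but its transcript of 1274 bases holds 1 reading frame of 417 codons, from base 21 to its last base, and the symbol is also that of Irgb10, an immunity-related GTPase induced by interferon. Its closest other transcript, Gm5431, matched over 1183 bases at 68.5% identity, so it is not a near copy of another gene. The frame holds 1 match to the P-loop that binds the phosphates of GTP (glycine, any 4 residues, glycine, lysine, then serine or threonine), which starts at codon 75. Its codons are in capitals in the stretch shown (chr11:58187951-58188034).
Gm12250: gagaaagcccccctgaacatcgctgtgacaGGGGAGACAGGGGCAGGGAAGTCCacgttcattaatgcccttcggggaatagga

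Trim11 itself (ENSMUSG00000020455.16, chr11:58978093-58991458, plus strand) was checked first. Its FPKM was 35.8, 36.3 and 39.2 in the Trim11+/+ tumors and 24.0, 22.8 and 22.9 in the Trim11+/- tumors. The genotypes did not overlap, the ratio of means was 0.626, and an exact permutation test (two-sided) gave p = 0.1, the least that is possible with 3 tumors in each group. Exons 2 to 6 of its main annotated transcript hold 76.5% of its 2251 bases and span 10.2 kb. That span is larger than the deletion size the paper gives, so the share of this transcript that was deleted is not known here. Read totals recovered from the FPKM values were between 8793199 and 11117125 per tumor, so that a gene with 1 kb of exon had 1 read per 0.0900 to 0.114 FPKM.

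2610507I01Rik (ENSMUSG00000085882.1) and Gm10435 were the genes with the largest difference among the 10, and both were higher where Trim11 was lower. 2610507I01Rik was at 0.404, 0.579 and 0.440 FPKM in Trim11+/+ tumors and at 10.6, 8.36 and 10.6 FPKM in Trim11+/- tumors, from 6, 8 and 6 reads against 160, 100 and 155 reads. The genotypes were far apart in every tumor, with a ratio of means of 20.8. The reads summed over each genotype, 20 against 415, gave a ratio per library total of 21.1 with an exact 95% interval of 13.5 to 34.9, which covers counting error only. On the scale of log2(FPKM + 1), which understates the change of genes near 0, the difference (Trim11+/- minus Trim11+/+, as throughout) was 2.87 with a standard error of 0.14. Relative to Trim11 in the same tumor, its FPKM was 1.13%, 1.59% and 1.12% in Trim11+/+ tumors and 44.1%, 36.7% and 46.3% in Trim11+/- tumors.

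The genes on either side of 2610507I01Rik showed no such step. Mrpl55, the mitochondrial ribosomal protein gene 100 bp from its 5′ end on the other strand, was at 18.1, 19.8 and 20.3 FPKM in Trim11+/+ and 21.0, 20.8 and 21.8 FPKM in Trim11+/- tumors. These groups did not overlap, but the ratio of means was 1.09. Guk1, the guanylate kinase gene 7623 bp away on the same strand, was at 26.2, 26.8 and 22.8 FPKM in Trim11+/+ and 28.6, 25.2 and 30.6 FPKM in Trim11+/- tumors, with overlap. The 3 genes whose log2(FPKM + 1) followed 2610507I01Rik most closely over the 6 tumors, among 9491 genes with a mean of at least 5 FPKM, lay on other chromosomes. They were Mlph, for the melanosome transport protein melanophilin (Pearson r = 0.994), Gm17168 (r = 0.994) and Gm23119 (r = 0.991), and since 6 tumors of 2 genotypes set these values, genes that differ between the genotypes lead such a ranking.

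Gm10435 (chr11:59002910-59007293, plus strand, 11.5 kb past the end of Trim11, 2926 exon bases) was at 0, 0 and 0.136 FPKM in Trim11+/+ tumors and at 1.81, 2.18 and 2.45 FPKM in Trim11+/- tumors. These values stand for 0, 0 and 4 reads against 59, 56 and 77 reads, so that it was nearly undetected with 2 intact copies of Trim11 and detected in each Trim11+/- tumor. Over the summed reads, 4 against 192, the ratio per library total was 48.7 with an exact 95% interval of 18.7 to 181. The log2 difference was 1.59 with a standard error of 0.17. Relative to Trim11 in the same tumor, its FPKM was 0.348% or less in Trim11+/+ tumors and 7.56%, 9.54% and 10.7% in Trim11+/- tumors. Since the kit does not mark the strand, which strand these fragments came from was not tested.

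**Figure D1:**
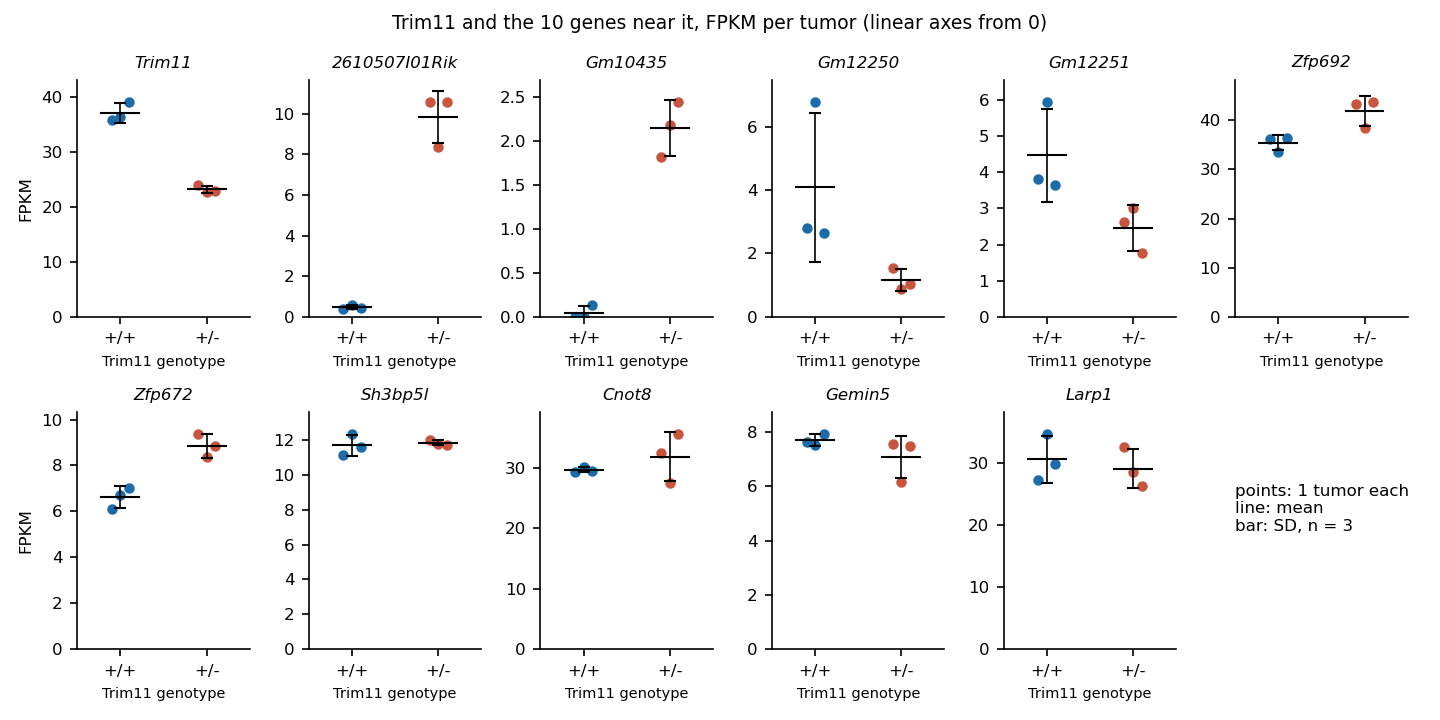
FPKM of Trim11 and the 10 genes in the 3 Trim11+/+ (blue) and 3 Trim11+/- (red) tumors, with points for single tumors, a line for the mean and bars for the SD. 2610507I01Rik and Gm10435 sit near 0 in every Trim11+/+ tumor and well above it in every Trim11+/- tumor, and Gm12250 and Gm12251 are lower in the Trim11+/- tumors.

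Gm12250 and Gm12251, both annotated as processed pseudogenes, were lower where Trim11 was lower. Gm12250 was at 2.80, 6.79 and 2.66 FPKM in Trim11+/+ and 1.55, 0.893 and 1.02 FPKM in Trim11+/- tumors, from 39, 88 and 34 reads against 22, 10 and 14 reads. The groups did not overlap, Trim11+/+ tumor 2 stood above the rest, and the ratio of means was 0.283. Without Trim11+/+ tumor 2 the log2 difference was -0.80, against -1.16 with a standard error of 0.32 over all tumors.

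Since Gm12250 carries the frame of an immunity-related GTPase, it was set beside that family and the interferon response. The 15 immunity-related GTPase and guanylate-binding protein genes of the list, Gm12250 included, had a summed FPKM of 61.1, 166.6 and 96.4 in Trim11+/+ and 67.7, 68.6 and 40.5 in Trim11+/- tumors. Trim11+/+ tumor 2 was again the highest, and here the genotypes overlapped. 12 of the 15 were tested, and all 12 had a log2 difference below 0 with a median of -0.52. Gm12250 was the 1 that met the rule for a call, a ratio of means of at least 1.5 in either direction with an unadjusted limma p under 0.05. Over all genes tested, 3.61% met that rule and 49.1% had a log2 difference above 0. Igtp, the family member 10543 bp past Gm12250, was at 12.1, 38.3 and 18.2 FPKM in Trim11+/+ and 12.3, 13.2 and 6.58 FPKM in Trim11+/- tumors, and was not called. Irgm2, a regulatory member of the family, was at 5.36, 12.0 and 8.02 FPKM against 7.09, 6.56 and 3.20 FPKM, also not called.

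The 18 interferon response genes had summed FPKM values of 173.5, 326.8 and 246.3 in Trim11+/+ and 167.2, 173.1 and 91.6 in Trim11+/- tumors, with the same tumor highest. All 18 had a log2 difference below 0, with a median of -0.63 against -0.005 for all genes tested, of which 49.1% lay above 0. By the rule for a call 6 of the 18 were lower, against 1.87% of all genes tested. Oas2, a sensor of double-stranded RNA, had a ratio of means of 0.233 and Isg15, a ubiquitin-like modifier, a ratio of 0.373. Markers of T cells, a source of interferon, were low throughout, with summed FPKM of 1.90 to 4.43 in Trim11+/+ and 0.984 to 2.43 in Trim11+/- tumors for 6 genes. In bulk tumors, fewer cells of a type and less RNA per cell cannot be told apart, and their part in the level of Gm12250 was not tested.

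**Figure D2:**
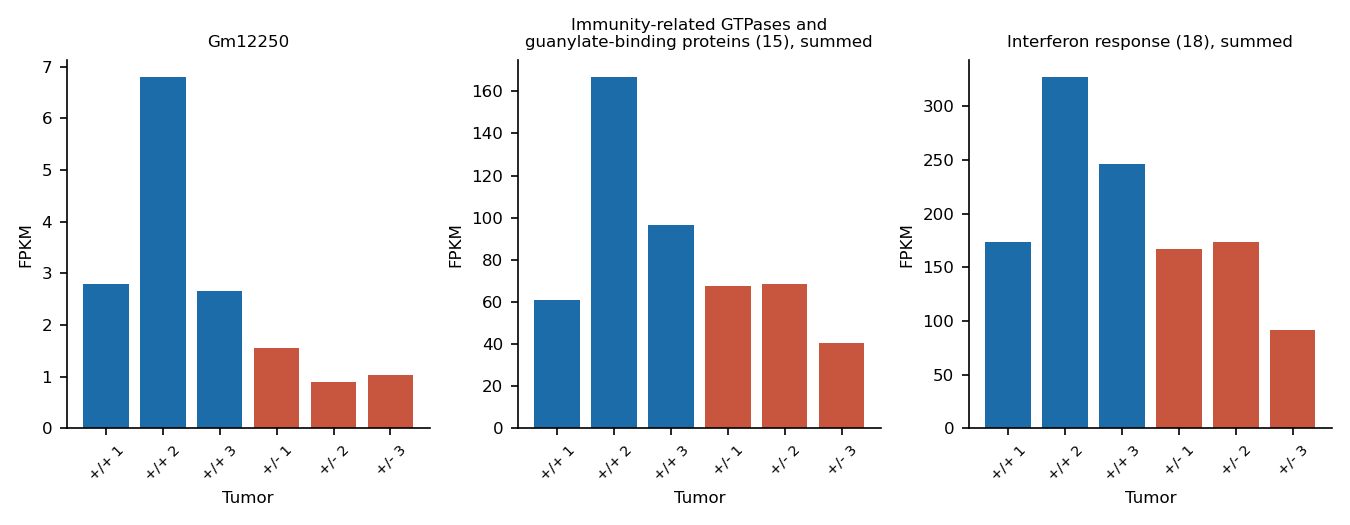
FPKM of Gm12250 and summed FPKM of 15 immunity-related GTPase and guanylate-binding protein genes and of 18 interferon response genes in each Trim11+/+ (blue) and Trim11+/- (red) tumor. Trim11+/+ tumor 2 is the highest in each panel, at 6.79 FPKM for Gm12250 and at 166.6 and 326.8 FPKM for the sums.

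Gm12251 was at 3.81, 5.96 and 3.65 FPKM in Trim11+/+ and 2.61, 3.02 and 1.76 FPKM in Trim11+/- tumors, from 33, 48 and 29 reads against 23, 21 and 15 reads. The groups did not overlap, with a ratio of means of 0.551 and a log2 difference of -0.65 with a standard error of 0.22. Its parent Ndufs3 was at 33.6, 30.9 and 29.2 FPKM in Trim11+/+ and 30.4, 30.4 and 35.1 FPKM in Trim11+/- tumors, with overlap and a ratio of 1.02. Gm12251 was therefore between 11.4% and 19.3% of the Ndufs3 level in Trim11+/+ tumors and between 5.02% and 9.92% in Trim11+/- tumors. Because the sequences are so alike, how the authors' mapping divided reads between the copies bears on the level of Gm12251. The call was lost without Trim11+/+ tumor 2 (log2 difference -0.47) and without Trim11+/- tumor 3 (-0.50).

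Among the protein-coding genes, Zfp692 and Zfp672 were slightly higher in Trim11+/- tumors and the other 4 overlapped between the genotypes. Zfp672 (chr11:58315114-58330339, minus strand) was at 6.12, 6.74 and 7.03 FPKM in Trim11+/+ and 9.38, 8.35 and 8.85 FPKM in Trim11+/- tumors, a ratio of 1.34 with a log2 difference of 0.37 and a standard error of 0.10. Zfp692 (chr11:58307069-58314627, plus strand) was at 36.2, 33.6 and 36.4 FPKM against 43.4, 38.4 and 43.8 FPKM, a ratio of 1.18 with a log2 difference of 0.23 and a standard error of 0.09. For both genes every Trim11+/- tumor was above every Trim11+/+ tumor, and both stayed under the fold of 1.5. They lie on opposite strands with their 3′ ends facing each other, 486 bp apart.

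Sh3bp5l begins 384 bp from the gene body of Zfp672 on the other strand (chr11:58330724-58347728). It was at 11.1, 12.4 and 11.6 FPKM in Trim11+/+ and 12.0, 11.8 and 11.7 FPKM in Trim11+/- tumors, so the step seen in Zfp672 was not seen in it, with a ratio of 1.01 and a log2 difference of 0.02 (standard error 0.09). The difference between Zfp672 and Sh3bp5l was not tested. Its paralog Sh3bp5 on another chromosome had a log2 difference of -0.04 with a standard error of 0.17.

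Cnot8, Gemin5 and Larp1 lie farther out, on the side of the Trim11 start. Cnot8 (chr11:58104153-58118594, plus strand) was at 29.4, 30.2 and 29.6 FPKM in Trim11+/+ and 32.5, 27.5 and 35.7 FPKM in Trim11+/- tumors, a ratio of 1.07. Gemin5 (chr11:58120002-58168539, minus strand) was at 7.63, 7.54 and 7.93 FPKM against 7.56, 6.17 and 7.47 FPKM, a ratio of 0.917. Larp1 (chr11:58009064-58062034, plus strand) was at 27.3, 34.8 and 29.8 FPKM against 32.6, 28.6 and 26.3 FPKM, a ratio of 0.952, and its log2 difference of -0.07 changed sign when Trim11+/+ tumor 2 or Trim11+/- tumor 3 was left out. All 3 overlapped between the genotypes.

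The other genes of the complexes and families of these proteins did not meet the rule for a call either. Of the 11 subunit genes of the CCR4-NOT complex, 0 were called in either direction by limma and 5 lay above 0, with a median log2 difference of -0.02. Cnot7, the closest relative of Cnot8, had a ratio of 0.946 (log2 difference -0.08, standard error 0.10). Of the 8 SMN complex genes tested, 0 were called and 2 lay above 0, with a median of -0.09. Of the 6 La-related protein genes tested, 0 were called, 3 lay above 0, and the median was -0.01. Over all genes tested, 3.61% met the same rule for a call, and 6.94% had an unadjusted limma p under 0.05. In lists this short, 0 calls are close to that share of 3.61%.

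By ratio and unadjusted p, 2 of the 10 genes met the rule for higher (2610507I01Rik and Gm10435), 2 that for lower (Gm12250 and Gm12251) and 6 neither. Since the genes were chosen on these same values, this describes them and is no test. Over all 17328 genes tested, 3.61% were called, 1.74% higher and 1.87% lower, and by an adjusted p under 0.05 in limma 0.00577%. The genotypes did not overlap in 6 of the 10, 4 higher and 2 lower, against 13.4% of all genes (6.6% higher, 6.78% lower), and nothing is read from these shares either. The 4 called genes were the 4 that the annotation lists as noncoding, and the 6 protein-coding genes were the 6 not called.

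The whole window was then described, members included, with limits set by position, which does not depend on the values. The minimum of 0.5 FPKM over the 6 tumors does depend on them. 2610507I01Rik and Gm10435 passed it only through the Trim11+/- tumors. Gm12247, with means of 0.538 FPKM in Trim11+/+ and 0 in Trim11+/- tumors, did not pass. The shares of genes tested are therefore not set by position alone. Of the 56 genes tested, 4 were called higher and 3 lower, which is 12.5%, and 30.4% did not overlap. The 46 genes of the window outside the 10 held 3 of these calls (6.52%), Hist3h2a and 1810065E05Rik among them. Hist3h2a, a histone H2A gene 21.3 kb before Trim11, was higher, at 1.24, 1.19 and 1.58 FPKM in Trim11+/+ and 3.98, 2.76 and 2.39 FPKM in Trim11+/- tumors. 1810065E05Rik, 552 kb before Trim11 and the next tested gene past Gm12251, was lower, at 3.16, 3.93 and 5.38 FPKM against 1.55, 3.07 and 0.704 FPKM. By annotation, 3 of the 38 protein-coding genes of the window were called (7.89%, against 2.71% of protein-coding genes in the genome). Its other called genes were the 4 described above that are annotated as noncoding, which were chosen on these values. With them, 4 of the 18 tested genes of the window not annotated as protein-coding were called (22.2%, against 6.2% of such genes in the genome). Of the 14 further ones, 0 were called and 0 had an unadjusted p under 0.05 in limma. Since the called ones had been set apart, nothing is read from these counts of 0.

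**Figure D3:**
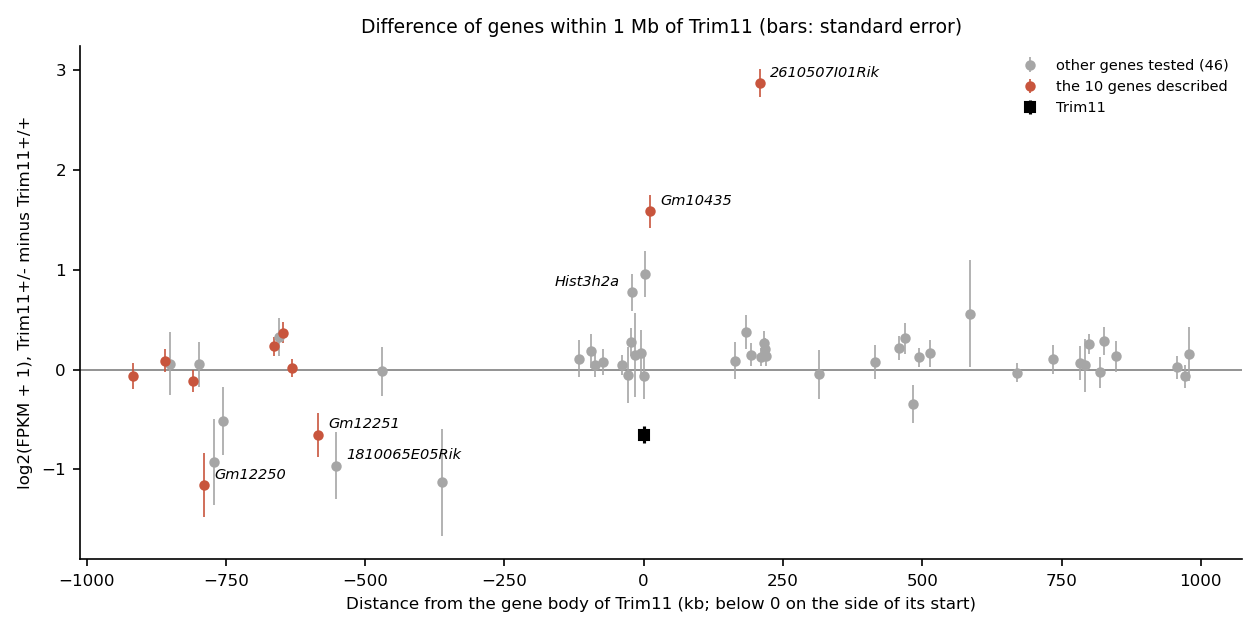
Difference in log2(FPKM + 1) between Trim11+/- and Trim11+/+ tumors for the 56 genes tested within 1 Mb of Trim11, by distance from its gene body in kb (below 0 on the side of the Trim11 start), with standard errors. The 10 genes are in red, 46 others in gray and Trim11 in black, and those genes meeting the call rule whose values are given are named. 2610507I01Rik, at 2.87, is the highest point of the window.

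Farther along chromosome 11 the share of calls went up and down with distance. Between 1 and 2 Mb from Trim11, 1 of 28 genes was called (3.57%), and between 2 and 5 Mb 1 of 62 (1.61%). Between 5 and 10 Mb the share was 8.74% of 103 genes. The window itself had 12.5% with the 10 genes and 6.52% without them. Since the 10 were chosen on these values, leaving them out lowers the share, and the 6.52% is no even comparison. The share was 4.66% of 279 genes between 10 and 20 Mb and 3.08% of 876 genes beyond 20 Mb. On other chromosomes it was 3.51% of 15656 genes. The median log2 difference was 0.10 in the window and between 0.05 and 0.15 in each bin beyond it on chromosome 11, against -0.01 on other chromosomes. In the window 71.4% of the genes lay above 0, against 61.9% beyond 20 Mb and 49.1% of all genes tested. The nearest tested genes outside the limit were Sap30l, 1168 kb before Trim11, and Rai1, 1114 kb past it.

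Chromosome 11 as a whole had a median log2 difference of 0.08 over 1405 genes, the third highest of 20 chromosomes after chromosomes 17 (0.10) and 7 (0.08). Tumors of 1 genotype differed in this as well. Set against the Trim11+/+ mean, the median of chromosome 11 was -0.08, 0.05 and 0.02 in the Trim11+/+ tumors and 0.12, -0.02 and 0.11 in the Trim11+/- tumors, so the genotypes overlapped. The differences of Zfp692 (0.23) and Zfp672 (0.37) stood above this shift, and those of Cnot8 (0.09) and Sh3bp5l (0.02) did not exceed 0.10, the median of the window.

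**Figure D4:**
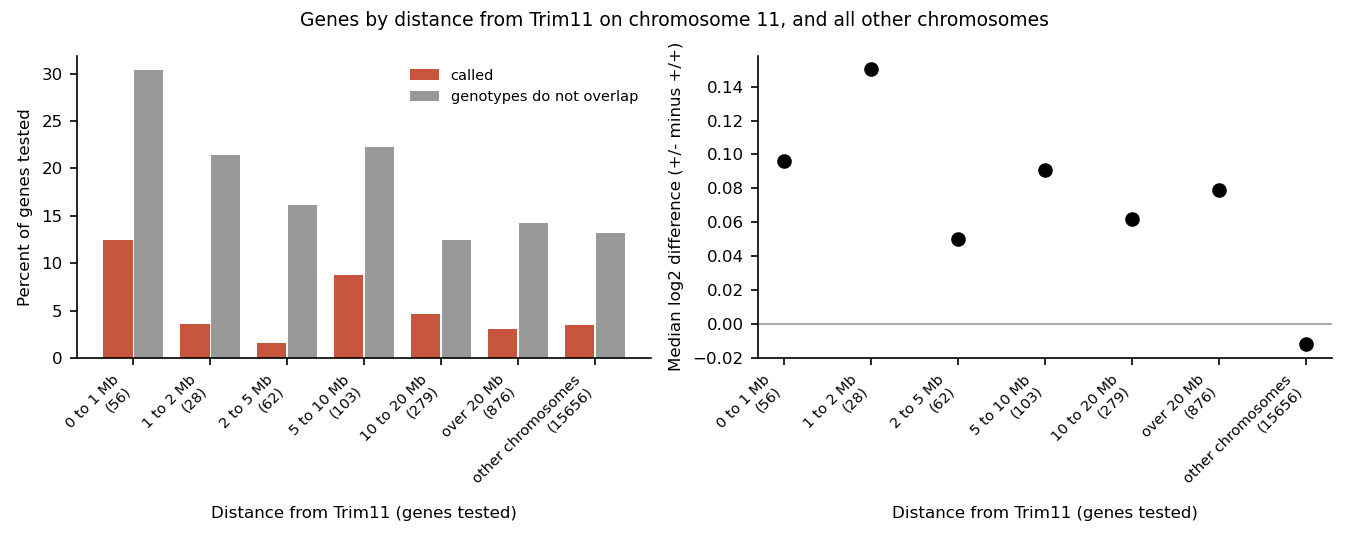
Left, percent of genes tested that were called or whose genotypes did not overlap, by distance from Trim11 on chromosome 11 and for the other chromosomes, with the number tested in brackets. Right, the median log2 difference (Trim11+/- minus Trim11+/+) of the same genes. The share called is 12.5% within 1 Mb, where 4 of the 7 calls are genes chosen on these values, and 8.74% between 5 and 10 Mb, and the medians of every bin on chromosome 11 lie above 0.

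The makeup of the tumors was checked with marker genes. Summed FPKM of 5 luminal markers was 1398 to 1704 in Trim11+/+ and 1320 to 1832 in Trim11+/- tumors. The 5 basal markers summed to 131 to 320 in Trim11+/+ and 60.7 to 94.5 in Trim11+/- tumors. Of these 5, 4 were called lower, against 1.87% of all genes tested. The part of this difference in the levels of the 10 genes was not tested. 6 macrophage markers summed to 247 to 318 against 222 to 253. 5 fibroblast markers summed to 104 to 231 against 91.7 to 171, 4 adipocyte markers to 12.0 to 98.5 against 7.17 to 63.2, 4 endothelial markers to 11.1 to 17.3 against 9.32 to 15.5, and 4 B cell markers to under 1 FPKM in every tumor. 4 skeletal muscle markers summed to 18.1, 88.6 and 182 FPKM in Trim11+/+ and 218, 0.709 and 0.679 FPKM in Trim11+/- tumors, with no marker called.

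The human orthologs of the 6 protein-coding genes were examined in MDA-MB-231, where every line comes from the same parent. These values played no part in the choice of the genes. The question was whether ZNF692, ZNF672, SH3BP5L, CNOT8, GEMIN5 or LARP1 differed between the 4 lines with a TRIM11 guide (TRIM11-KD and DKD) and the 3 without one. By limma over 12636 genes, with the KDM5C guide as a covariate, 0 of the 6 and 0 of all genes passed an adjusted p under 0.05, while 1348 genes (10.7%) had an unadjusted p under 0.05. Since all lines were made from 1 cell line, p-values measure the spread between lines. TRIM11 itself was at 12.6 FPKM in Control, 13.4 and 10.6 in TRIM11-KD, 13.6 and 14.2 in KDM5C-KD, and 16.1 and 9.38 in DKD. The libraries labelled TRIM11-KD1 and DKD1 thus did not have less TRIM11 mRNA than Control. The paper checked its knockdown lines for protein by western blotting, and mRNA levels do not show whether the protein was lowered.

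SH3BP5L was at 19.4 FPKM in Control, 17.1 and 17.9 in KDM5C-KD, 20.3 and 22.6 in TRIM11-KD, and 19.7 and 23.9 in DKD. Its lines with and without a TRIM11 guide did not overlap. The share of all genes without such overlap was not computed, so nothing is read from this. The TRIM11 guide effect was 0.23 on the log2 scale with a standard error of 0.11 (limma, adjusted p = 0.489). The two-sided exact permutation test, which takes no account of the KDM5C guide, gave p = 0.0571, where 4 against 3 allows 0.0286 at the least. ZNF672 was at 10.8 FPKM in Control, 12.2 and 11.7 in KDM5C-KD, 11.8 and 14.6 in TRIM11-KD, and 13.7 and 15.2 in DKD. Its effect was 0.25 with a standard error of 0.11 (limma, adjusted p = 0.467), and the groups overlapped in 1 line of each.

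CNOT8 was at 25.6 FPKM in Control, 22.5 and 16.8 in KDM5C-KD, 30.1 and 29.6 in TRIM11-KD, and 23.4 and 23.7 in DKD, with an effect of 0.24 (standard error 0.11, limma adjusted p = 0.496). ZNF692 was at 13.6 FPKM in Control and between 10.4 and 14.6 in the lines with a TRIM11 guide, while KDM5C-KD2 stood apart at 5.79 FPKM. Its effect of 0.23 (standard error 0.26, limma adjusted p = 0.777) became -0.08 without that library. The effects on GEMIN5, 0.15, and LARP1, 0.07, had adjusted p-values of 0.651 and 0.783 by limma. The guide effect did not differ detectably between lines with and without a KDM5C guide for any of the 6, with adjusted p-values of the interaction in limma of 0.935 and above, while 0.0158% of all genes had an adjusted p under 0.05 and 5.49% an unadjusted one. All 6 guide effects were above 0, which 48.5% of all genes were, and their standard errors were between 0.08 and 0.26.

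**Figure D5:**
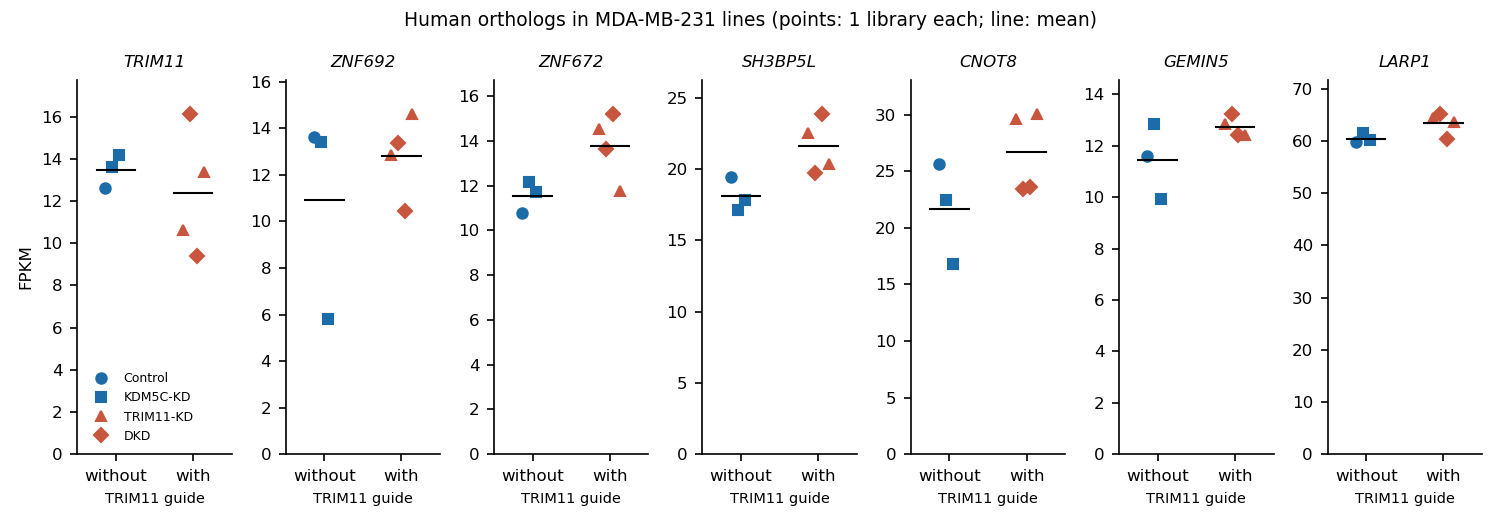
FPKM of TRIM11 and the 6 human orthologs in 7 MDA-MB-231 libraries, grouped by the presence of a TRIM11 guide, with a symbol for each kind of line and a line for the mean. The 4 lines with a TRIM11 guide lie above the 3 without one for SH3BP5L, and the groups overlap for the other 5 orthologs and for TRIM11. The share of all genes without overlap was not computed.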

How the data were processed

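RNA-Seq libraries (poly(A) selection, non-directional, paired reads of 150 bases) were made from 6 tumors and 7 MDA-MB-231 lines. Per the methods, low-quality bases and adaptors were removed (Cutadapt), HISAT2 mapped the reads to hg19 (lines) or mm10 (tumors), and Cufflinks gave the expression. The authors deposited FPKM values, 1 column per library. ChIP-Seq data were not analysed here. 1 gene of the window is not reported here. Of 55335 mouse and 26006 human rows, the row with the highest mean was kept per symbol, and 25 human symbols turned into dates were left out. For 98.8% of 28790 mouse genes the FPKM values were whole reads (within 0.01) over the exon length of GENCODE vM21 and a library total, which gave the reads printed; the human FPKM values carry no depth.

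Genes with a mean of at least 0.5 FPKM were fitted with limma 3.58.1 (R 4.3.3; lmFit, eBayes with a trend) on log2(FPKM + 1), with Benjamini-Hochberg adjustment. The test was checked on simulated data. In tumors a call was a ratio of means of at least 1.5 and an unadjusted p under 0.05; in cell lines it was an adjusted p under 0.05 for the TRIM11 guide. Two-sided exact permutation tests were used for single genes. Intervals of read ratios are exact 95% binomial intervals and cover counting error only. Nothing in the labels says that the tumors came from separate litters, so p-values measure the spread between these samples. Sequences were compared with BLAST 2.17.0; Python 3.11.15, pandas 2.3.3 and matplotlib 3.10.9 were used for the rest.

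The members, the gene lists and the tests were chosen with earlier results of these data known. Named were the 10 genes, Trim11, called or adjoining genes of the window, the 3 genes most alike to 2610507I01Rik and Trim11, the orthologs and list members. Trim11 was followed most closely by Gm16175 (r = 0.995), Sbno2 (0.988) and 4930524O07Rik (0.985). The alternatives were pseudocount 0.1, other minimums, 2 scalings, eBayes without a trend, a replicate block, voom on the recovered reads, a fold of 2, adjusted p, windows of 0.5 and 2 Mb, and each library left out in turn.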

Additional observations from a re-analysis of the deposited data

How the results depend on the processing

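The genes were chosen on the tumor values, so their calls under other settings are a description and no support. In the 14 refits of the tumors, 2610507I01Rik, Gm10435 and Gm12250 kept their calls in 14 and Gm12251 in 12. At a fold of 2, which is no refit, Gm12251 was not called, since its level was 1.82-fold lower, and the window held 4 genes higher and 2 lower. With a pseudocount of 0.1 the log2 differences were 4.12 for 2610507I01Rik, 4.07 for Gm10435 and -1.63 for Gm12250, and with voom on the recovered reads they were 4.30, 5.98 and -1.66; a smaller pseudocount shrinks low values less. Counts over all genes (301 higher, 324 lower) were 479 and 491 with any mean above 0 FPKM, 164 and 161 at a fold of 2, and 1 and 0 by adjusted p in limma, where 6.94% of genes had an unadjusted p under 0.05. With 1 tumor left out they were 272 to 443 and 295 to 467. In the window, the counts (4 higher, 3 lower) were 1 and 0 by adjusted p, 0 lower within 0.5 Mb, and 4 to 5 higher and 1 to 4 lower with 1 tumor left out; the count of 1 came without Trim11+/+ tumor 2, and the causes were not tested. The sign of Larp1 and Sh3bp5l, near 0, changed in 2 and 1 alternatives.

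Replicate numbers did not pair the tumors (correlations of deviations -0.33, 0.04 and -0.13 for equal numbers). With the replicate number as a block, 289 genes were called higher and 284 lower, 5 and 4 in the window, and for the cell lines (block over the 6 knockdown lines) 0 orthologs passed. No ortholog passed under any alternative. The interaction without Control could not be fitted. Scaling moved the median of all genes by at most 0.005. Limits: 3 tumors per genotype, few reads for the genes annotated as noncoding, no strand, and no depth for the cell lines.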
